A study of Mus musculus with 8 samples.

Results

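The genes described here encode 8 enzymes of cholesterol synthesis, Hmgcs1, Idi1, Fdps, Fdft1, Sqle, Lss, Cyp51 and Dhcr7, in the dorsal and ventral medial entorhinal cortex (MEC) of the mouse. They were chosen by name, not by their values, to be set beside myelin genes, which were higher dorsally, and all 8 were found among the 38553 genes of the expression table. All 8 passed the filters used for testing, which left 13674 genes. RNA was extracted from acute brain slices of 13 male C57Bl/6JolaHsd mice aged 8 weeks. Tissue was pooled within 4 groups of 3 or 4 mice, giving 4 dorsal and 4 ventral libraries. The labels name no transgene and no treatment, and the samples differ in the place within the right MEC from which tissue was dissected, in sagittal slices 400 µm thick. Each library held all cell types of the tissue.

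Cholesterol is built from acetyl-CoA through the mevalonate pathway. Brain cells make their own cholesterol because lipoproteins do not pass the blood-brain barrier, and myelin, the lipid sheath that oligodendrocytes wrap around axons, holds a large share of it. Neurons and astrocytes also express the enzymes. The transcription factor SREBP2, encoded by Srebf2, is released from the endoplasmic reticulum when sterols are scarce and binds sterol regulatory elements in the promoters of most of the pathway's genes.

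Expression was given as FPKM, the fragments of a gene scaled to exon length and to the fragments mapped in the library, so that levels can be compared between genes as well as between libraries. The columns of the table are headed D1, V1, D2, V2, D3, V3, D4 and V4. The first 4 of these columns averaged to the authors' dorsal means and the last 4 to their ventral means, within 0.1% for 21861 of 21876 genes, and the next best of the 70 ways to split the columns matched 1273. These means set the regions used here, although the headers of 4 of the 8 libraries (V1, V2, D3 and D4) name the other region. Counts and medians of the enzymes are therefore also given without these 4 libraries and with the regions as headed. Libraries are named below by their headers. The FPKM of a library summed to between 298763 and 341402, and fragment totals were not used here. Excitatory neuron, astrocyte and oligodendrocyte markers were present in all libraries, as were the MEC markers Reln, Wfs1 and Calb1, while the choroid plexus and dentate gyrus lists summed to at most 1.43 and 6.34 FPKM.

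Of the members' promoters, that of Hmgcs1 is shown. It was the one among the 5 members with a sequence here (Hmgcs1, Idi1, Lss, Cyp51 and Dhcr7) that held the string searched as a sterol regulatory element. The sequence covers the 250 bases before the RefSeq start of the gene (GRCm38.p6, chr13:119690101-119690350, + strand). Capitals mark, in 5′ to 3′ order, 2 CCAAT boxes on the opposite strand (ATTGG), the sterol regulatory element TCACCCCAC, a GC box on the opposite strand (CCGCCC), another CCAAT box and a GC box.
Hmgcs1: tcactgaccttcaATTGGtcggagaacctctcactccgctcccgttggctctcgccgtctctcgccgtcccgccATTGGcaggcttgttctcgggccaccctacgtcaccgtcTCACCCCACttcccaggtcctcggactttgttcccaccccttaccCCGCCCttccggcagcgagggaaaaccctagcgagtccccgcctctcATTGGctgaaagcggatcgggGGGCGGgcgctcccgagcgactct
The sterol regulatory element, searched as TCACNCCAC on both strands, lay 137 to 129 bases before the start, and 1.05% of 32851 RefSeq promoter windows of the same length held it. A CCAAT box (CCAAT on either strand) and a GC box (GGGCGG on either strand) were found in 5 and 6 of the 7 windows of these members, of which Dhcr7 had 3, against 33.8% and 32.7% of all windows. The string of the sterol regulatory element was in 1 of the 7, and other forms of the element were not searched. The motifs did not overlap each other in the Hmgcs1 window. These are matches of letters, not measured binding sites.

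The 8 enzymes differed widely in level and kept almost the same order in every library. Mean FPKM over the 8 libraries was 53.0 for Hmgcs1, 28.9 for Fdft1, 24.5 for Sqle, 17.6 for Cyp51, 11.9 for Dhcr7, 10.1 for Lss, 3.38 for Idi1 and 1.23 for Fdps. The highest mean was thus 43.0 times the lowest. Hmgcs1 was above 92.3% of the genes tested and Fdps above 4.17%. Of the 7 neighbouring pairs in this order, 2 had FPKM ranges that overlapped, Fdft1 with Sqle and Dhcr7 with Lss. Fdft1 was nevertheless above Sqle in 8 of 8 libraries, and Dhcr7 was above Lss in 7 of 8. The low values of Fdps and Idi1 are set beside those of their pseudogenes further on.

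Ventral mean FPKM of these enzymes ran from 78.8% (Idi1) to 106.6% (Dhcr7) of dorsal mean FPKM. In the comparison of all genes by limma, a gene was called when its Benjamini-Hochberg adjusted p was under 0.05 and the mean FPKM of one region exceeded that of the other by at least 20%. Ratios are given as log2(V/D), the log2 of ventral over dorsal mean FPKM. The comparison called 492 of the 13674 genes (3.6%), 294 higher dorsally (D>V, 2.15%) and 198 higher ventrally (V>D, 1.45%). None of the 8 enzymes was called (0 of 8), and 2 of 8 had an unadjusted p under 0.05, as did 16.0% of all genes tested. The median log2(V/D) of the 8 was -0.08, with 6 of 8 below 0, and that of all genes tested was -0.01, with 51.2% below 0. The median of the 8 was nearer to 0 without V3 (-0.038), D2 (-0.045), D3 (-0.055) or D1 (-0.059). It was farther from 0 without V1 (-0.121), D4 (-0.099), V4 (-0.097) or V2 (-0.089). After rescaling to equal total FPKM in every library, the calls over all genes were 195 D>V and 201 V>D, so that 49.2% of calls rather than 59.8% were D>V, and the medians were -0.039 for the 8 and 0.045 for all genes tested.

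Hmgcs1 encodes the cytosolic HMG-CoA synthase, which joins acetyl-CoA and acetoacetyl-CoA early in the pathway (chromosome 13, 119690462 to 119708086). Its FPKM was 60.8, 52.7, 61.5 and 53.4 in the dorsal libraries D1, V1, D2 and V2, and 50.7, 45.5, 47.2 and 51.8 in the ventral libraries D3, V3, D4 and V4. Every dorsal library was above every ventral one, and the gap between the lowest dorsal and the highest ventral library was small. Mean FPKM was 57.1 ± 4.68 (SD, n = 4) dorsally and 48.8 ± 2.97 (SD, n = 4) ventrally. The log2 fold change in limma, which is on the log2(FPKM + 1) scale, was -0.22 (SE 0.07) with an adjusted p of 0.16 (limma). Hmgcs1 was therefore not called, although it was 14.5% lower ventrally and its unadjusted p was 0.0137. An antisense gene, Gm48342, overlaps it, and the counting is not stated to have used strand.

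Idi1 encodes isopentenyl diphosphate isomerase, which interconverts the isoprene units (chromosome 13, 8885501 to 8892451). Its FPKM was 3.85, 3.59, 3.69 and 3.98 in the dorsal libraries and 2.82, 3.47, 2.32 and 3.31 in the ventral libraries, in the order of headers given above. The regions again did not overlap, and the ventral library headed D4 was the lowest. Mean FPKM was 3.78 ± 0.17 (SD, n = 4) dorsally and 2.98 ± 0.518 (SD, n = 4) ventrally. Idi1 had the most negative log2(V/D) of the 8, -0.34, with a limma log2 fold change of -0.27 (SE 0.10) and an adjusted p of 0.221. It was 21.2% lower ventrally and met the ratio criterion, but not the one on adjusted p (unadjusted p 0.0249 in limma). Hmgcs1 and Idi1 were the 2 members of 8 whose libraries did not overlap between regions, both D>V, and 6.17% of all genes tested did not overlap in that direction (4.95% in the other, 11.1% in either).

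Fdps encodes farnesyl diphosphate synthase, whose product is the branch point between sterols and the isoprenoids used for protein prenylation (chromosome 3, 89093592 to 89101967). Its FPKM was 1.29, 1.08, 1.5 and 0.944 dorsally and 1.32, 1.27, 1.26 and 1.18 ventrally. The ventral libraries fell inside the dorsal range. The log2(V/D) was 0.06 and the adjusted p 0.902 (limma).

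Fdft1 encodes squalene synthase, the first enzyme committed to sterols (chromosome 14, 63122462 to 63177793, a locus that in the table also takes in the overlapping gene Ctsb). Its FPKM was 29.7, 24.5, 31.0 and 31.1 dorsally and 27.3, 24.6, 32.6 and 30.5 ventrally. The libraries headed V1 and V3 were the lowest of their regions, and the regions overlapped almost completely. Its log2(V/D), -0.02, was the nearest to 0 of the 8 (adjusted p 0.960, limma).

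Sqle encodes squalene epoxidase, an oxygen-using and rate-limiting step (chromosome 15, 59315077 to 59331192). Its FPKM was 23.5, 22.3, 27.9 and 26.4 dorsally and 22.04, 19.7, 26.4 and 27.8 ventrally. Both regions held libraries near the top and near the bottom of the range. The log2(V/D) was -0.06 and the adjusted p 0.837 (limma).

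Lss encodes lanosterol synthase, which closes the sterol rings (chromosome 10, 76531588 to 76562226). Its FPKM was 12.2, 9.53, 10.97 and 9.26 dorsally and 9.31, 9.58, 10.9 and 9.21 ventrally. The dorsal libraries headed D1 and D2 were above those headed V1 and V2, which lay within the ventral range. The log2(V/D) was -0.11 and the adjusted p 0.711 (limma).

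Cyp51 encodes lanosterol 14-alpha-demethylase, the first step after lanosterol (chromosome 5, 4081145 to 4104746). Its FPKM was 19.0, 17.8, 19.2 and 17.3 dorsally and 18.5, 16.5, 15.8 and 16.8 ventrally. Only the ventral library headed D3 reached into the dorsal range. Mean FPKM was 18.3 ± 0.906 (SD, n = 4) dorsally and 16.9 ± 1.11 (SD, n = 4) ventrally, with a log2(V/D) of -0.12 and an adjusted p of 0.481 (limma).

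Dhcr7 encodes 7-dehydrocholesterol reductase, which acts at the end of one branch of the pathway (chromosome 7, 143823145 to 143848410). Its FPKM was 11.7, 11.1, 11.3 and 11.9 dorsally and 11.9, 10.4, 13.2 and 13.6 ventrally. The ventral libraries spread around the narrow dorsal range, with D4 and V4 above it, D3 at its top and V3 below it. The log2(V/D) was 0.09, the most positive of the 8, and the adjusted p 0.724 (limma). Among the 8, those acting after squalene synthesis (Sqle, Lss, Cyp51 and Dhcr7) thus had log2(V/D) between -0.12 and 0.09. None of them separated the regions. Some other enzymes of that stretch of the pathway lay outside this range, Hsd17b7 and Lbr among them, as given below.

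**Figure D1:**
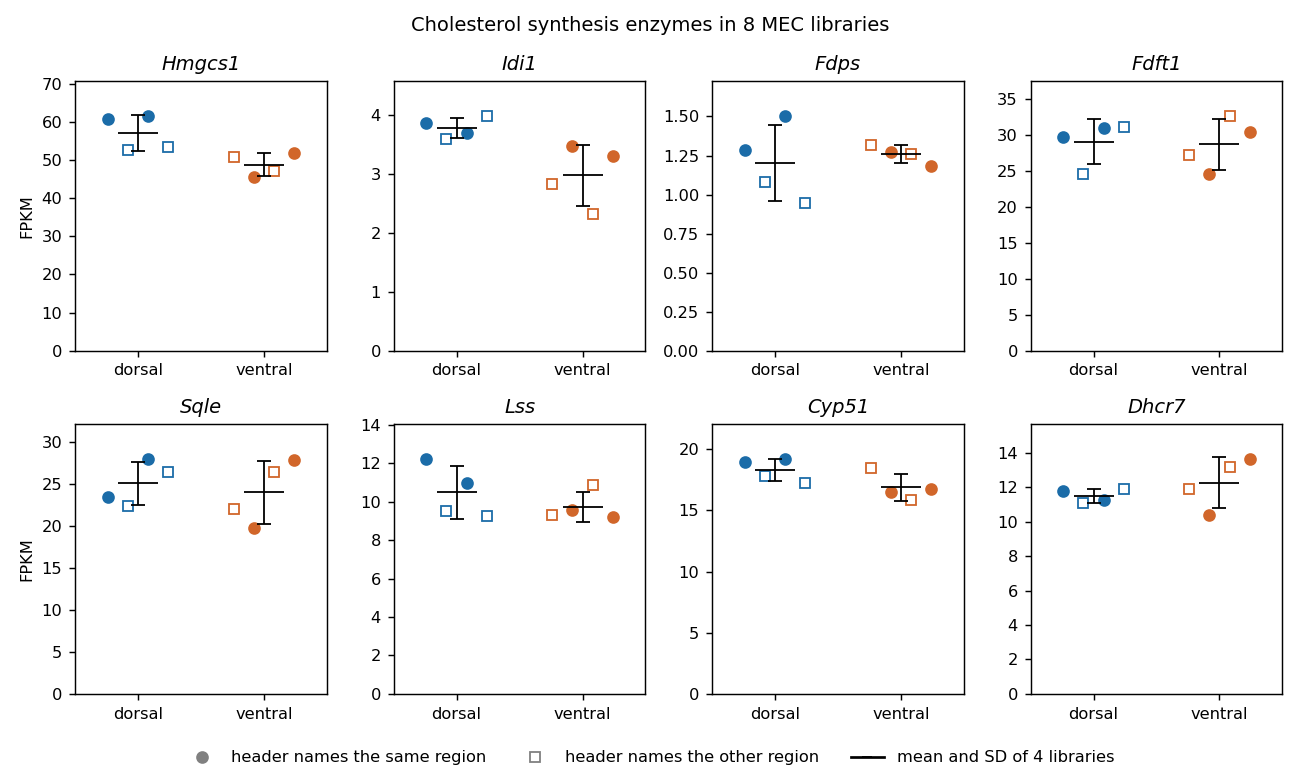
FPKM of the 8 enzymes in pathway order, in 4 dorsal (blue) and 4 ventral (orange) libraries, with linear axes that start at 0 and differ between panels. Filled circles are libraries whose header names the region used, open squares those whose header names the other region, and bars give mean and SD (n = 4). Hmgcs1 and Idi1 are the panels in which the regions do not overlap.

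The 95% intervals of the limma log2 fold changes limit how large a difference on the log2(FPKM + 1) scale these 4 against 4 libraries leave room for. That scale understates the change of low genes. The log2(V/D) of Idi1 and Fdps could therefore lie farther from 0 than their limits. They reached from -0.50 at the lowest, for Idi1, to 0.28 at the highest, for Fdps. For 6 of the 8 enzymes the interval included 0, and for Hmgcs1 (-0.39 to -0.06) and Idi1 (-0.50 to -0.04) it lay below 0. These intervals are not adjusted for the number of genes.

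The other enzymes between acetyl-CoA and cholesterol were compared in the same way. Of this list of 13 genes, all of which were tested, 0 were called by limma and 3 had an unadjusted p under 0.05. Their median log2(V/D) was -0.16, with 9 of 13 below 0. With each library left out in turn, this median ranged from -0.189 to -0.060, the latter without V3. It was -0.069 without D1 and -0.087 without D2. Acat2, the thiolase that starts the pathway, did not overlap between regions, with dorsal FPKM of 9.31 to 11.2 and ventral FPKM of 8.20 to 8.72 (log2(V/D) -0.25, adjusted p 0.14 in limma). No other gene of the 13 was without overlap, and 6.17% of all genes tested did not overlap in the D>V direction. Hsd17b7 and Lbr, which act on the sterol rings and their side groups after lanosterol, had log2(V/D) of -0.27 and -0.29, with the ventral library headed D3 of Lbr (2.32 FPKM) apart from the other 3 (1.58 to 1.66).

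The oligodendrocyte and myelin genes, the comparison for which these enzymes were chosen, were called in large part. Of 18 genes on that list 17 were tested, and 16 were called D>V (2.15% of all genes tested). All 17 had dorsal libraries above every ventral library (6.17% of all genes tested). Their median log2(V/D) was -0.86. Mbp, which encodes myelin basic protein, had FPKM of 358.4, 448.4, 489.9 and 456.7 dorsally and 205.6, 239.5, 262.2 and 257.0 ventrally (log2(V/D) -0.86, adjusted p 0.00254 in limma). The largest ratios were those of Opalin (-1.24), Aspa (-1.02), Mobp (-1.02) and Ermn (-0.98). In bulk tissue, fewer oligodendrocytes and less RNA per oligodendrocyte cannot be told apart.

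**Figure D2:**
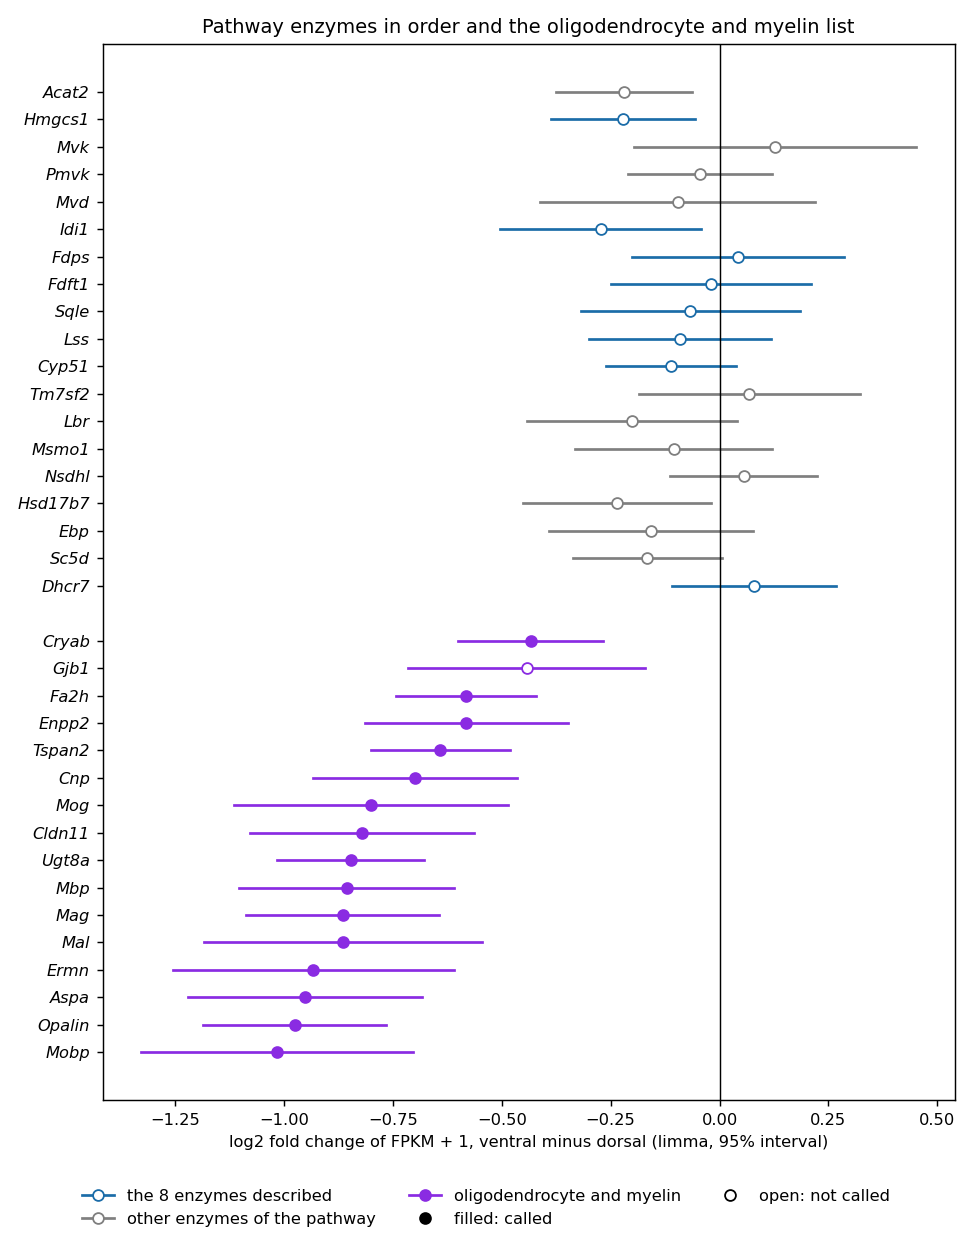
Limma log2 fold changes on the log2(FPKM + 1) scale, ventral minus dorsal, with 95% intervals, for 19 enzymes in pathway order (the 8 described in blue, 11 others in grey) and 16 oligodendrocyte and myelin genes (purple). Filled points were called. None of the 8 blue points is filled, and 15 of the 16 purple points are.

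Among the single genes some intervals met, and no test compared the enzymes with this list. The interval of Gjb1, a gap junction gene of the oligodendrocyte list, was -0.71 to -0.17, and that of Cryab, which encodes a small heat shock protein, was -0.60 to -0.27. Both overlapped the intervals of Idi1 and Hmgcs1 given above. Gjb1 and Cryab were chosen after their values were seen.

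The level of each list was also taken in each library (the plot of list levels by library). The mean over genes of log2(FPKM + 1), each gene taken relative to its own mean over the libraries, was 0.20 to 0.48 for the oligodendrocyte list in dorsal libraries and -0.58 to -0.30 in ventral ones. For the 8 enzymes it was 0.09, -0.06, 0.12 and 0.01 in D1, V1, D2 and V2 and -0.05, -0.12, -0.02 and 0.03 in D3, V3, D4 and V4. The enzymes therefore overlapped between regions, and the libraries headed D1 and D2 were their highest. Library D2 held the highest of the 8 values for 4 of 8 enzymes, and library V3 the lowest for 3 of 8. The library headed V1 was the lowest dorsal library for 5 of 8 enzymes and the one headed V3 the lowest ventral library for 4 of 8. Among the oligodendrocyte genes the order within dorsal MEC was another one, since D1 was the lowest dorsal library for 14 of 17.

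**Figure D3:**
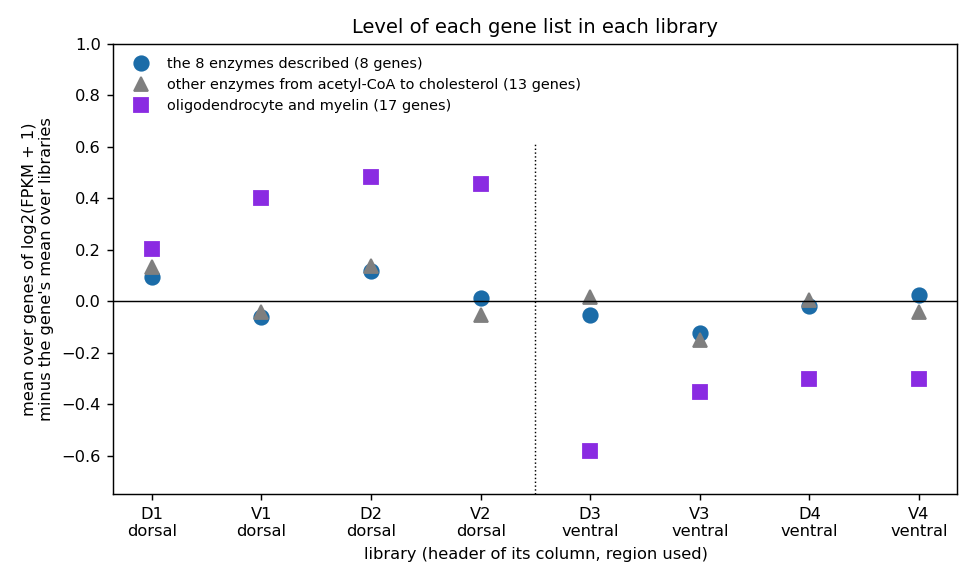
Mean over the genes of a list of log2(FPKM + 1), relative to each gene's mean over all libraries, for each library (header and region used). The oligodendrocyte and myelin list (purple, 17 genes) lies above 0 in every dorsal and below 0 in every ventral library, while the 8 enzymes (blue) and the 13 other enzymes (grey) lie between -0.15 and 0.14 in all.

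When the regions were taken as the headers name them, 1 of 13674 genes was called by limma (0.00731%), 0 of the 8 enzymes was called, and 1 of 8 had an unadjusted p under 0.05. The enzymes' median log2(V/D) was then -0.10, with 7 of 8 below 0, whereas the oligodendrocyte median moved to 0.09. The 13 other enzymes of the pathway had a median of -0.21, with 11 of 13 below 0 and 0 called. An unadjusted p under 0.05 was found for 4 of these 13 and for 721 of all 13674 genes. With the 4 libraries whose headers name the region used (D1 and D2 against V3 and V4), 0 of 13661 genes (0.0%) were called by limma. An unadjusted p under 0.05 was found for 1240 of the 13661 genes, 2 of the 8 enzymes and 4 of the 13 others. The regions did not overlap for 5605 of the genes, 5 of the 8 enzymes and 10 of the 13 others. Median log2(V/D) was -0.17 for the 8 enzymes (7 of 8 below 0) and -0.23 for the 13 others (11 of 13). That of the oligodendrocyte list was -0.72. Of its 17 genes, 16 had an unadjusted p under 0.05 (limma) with these 4 libraries, and 17 did not overlap between regions. Idi1 was the enzyme most affected by the headers, since its limma log2 fold change of -0.27 became 0.15 with the regions as headed.

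Reads of Fdps, Idi1 and Fdft1 cannot be assigned to these genes with certainty, because processed pseudogenes, copies of a spliced transcript at other sites in the genome, share most of their sequence. In the GENCODE M21 annotation (GRCm38), Fdps had 6 such copies of at least 85% identity over 200 bases, Idi1 had 5 and Fdft1 had 1. The copy nearest to Fdps, Gm3571 (chromosome 10, 93778660 to 93779719), was identical at 1050 of 1062 aligned bases, 98.9%. A stretch of 60 bases shows how few positions tell them apart, with the 2 differing bases in capitals (bases 434 to 493 of the Fdps transcript).
Fdps: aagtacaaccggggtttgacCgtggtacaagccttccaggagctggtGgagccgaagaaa
Gm3571: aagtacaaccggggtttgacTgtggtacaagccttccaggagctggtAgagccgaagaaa
Gm3571 was listed at 5.75, 4.72, 5.48 and 5.09 FPKM dorsally and 7.10, 5.31, 6.17 and 6.46 ventrally, in every library above Fdps itself. For Idi1, the copy Gm13502 (chromosome 2, 53696121 to 53696804) was identical over all 684 aligned bases. It was listed at 12.2, 10.9, 10.6 and 10.9 FPKM dorsally and 11.1, 9.63, 7.91 and 8.64 ventrally, also above the gene in every library. Gm6781, 97.4% identical to Fdft1, was listed at 20.7 to 31.1 FPKM, close to Fdft1.

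With the listed copies added to the gene, an alternative chosen after seeing the data, none of the 3 genes was called. Fdps became 7.82 dorsally and 8.72 ventrally (log2(V/D) 0.16), Idi1 became 14.9 and 12.3 (log2(V/D) -0.28, adjusted p 0.167 in limma), and Fdft1 became 54.5 and 55.0 (log2(V/D) 0.01). Adding the copies necessarily raised the levels of Fdps and Idi1. Without the copies their log2(V/D) was 0.06 and -0.34. FPKM is scaled to the exon length of each gene, so a sum over a gene and its copies is not the level of either. Fdps also shares exon sequence with the overlapping gene Gm43738 on the same strand, and Fdft1 overlaps Ctsb on the opposite strand over 774 bases.

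**Figure D4:**
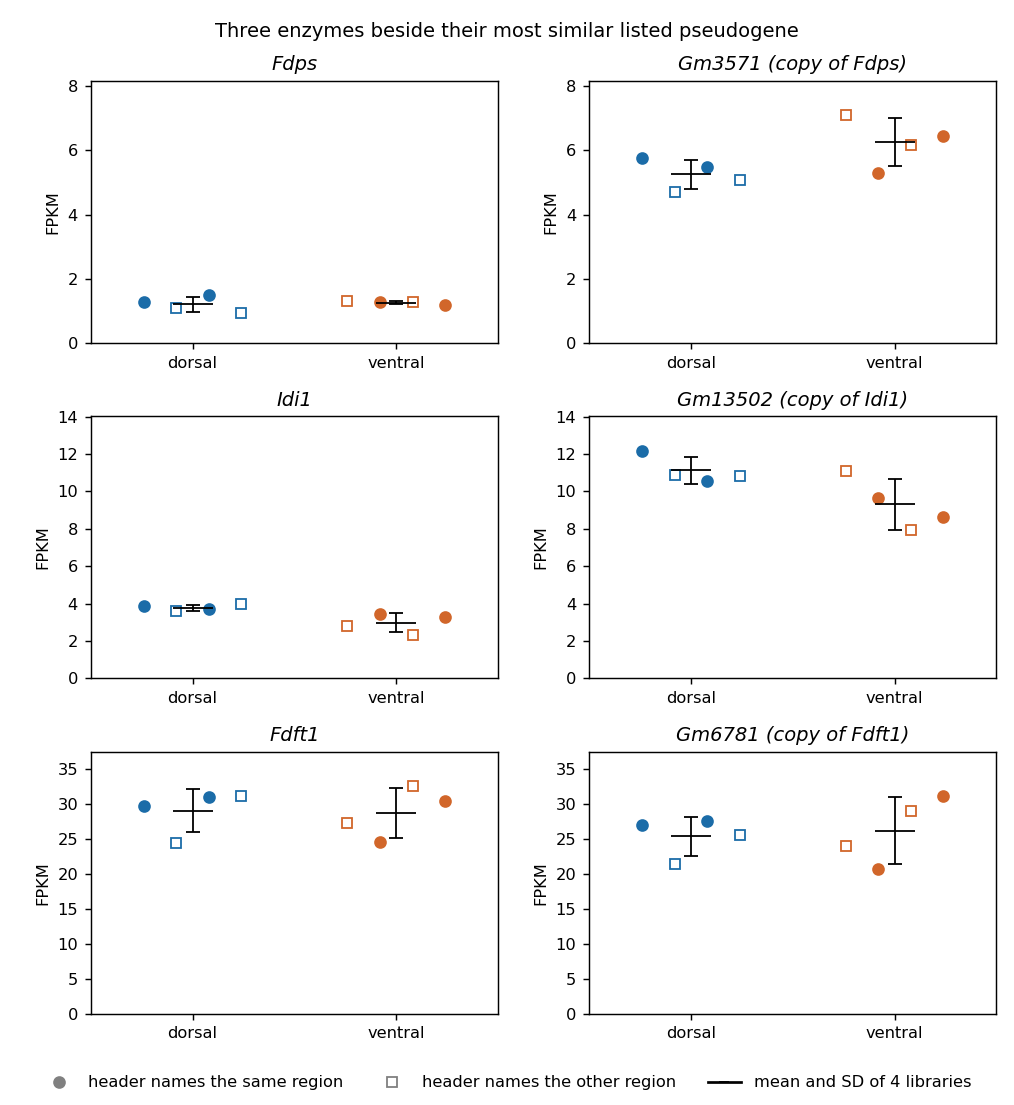
FPKM of Fdps, Idi1 and Fdft1 (left) and of the most similar pseudogene listed for each (right), in 4 dorsal and 4 ventral libraries, with the same axis for a gene and its copy and bars for mean and SD (n = 4). Gm3571 and Gm13502 are listed above Fdps and Idi1 in every library.

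The genes that sense sterols and control the pathway were mostly not called either. Of 13 genes on this list 11 were tested, and 1 was called, Stard4, which encodes a carrier of cholesterol within cells. Its FPKM was 8.17, 7.87, 8.69 and 8.33 dorsally and 6.24, 5.95, 6.32 and 7.22 ventrally, and every dorsal library was above every ventral one. The log2(V/D) was -0.36 with an adjusted p of 0.0429 (limma), and with each library removed in turn the call held in 1 of 8 fits, that without V4. Over those 8 fits its adjusted p was 0.032 to 0.122. With the 4 libraries whose headers name the region used it was 0.557, in a fit that called 0 of 13661 genes. The adjusted p of Stard4 was 0.0905 when libraries were rescaled to equal totals and 0.0503 after quantile normalization. Srebf2 had a log2(V/D) of -0.16. Insig1, which holds SREBP2 in the endoplasmic reticulum, had one of -0.28. Both are themselves targets of SREBP2, as are most of the enzymes, and their adjusted p was 0.434 and 0.262 (limma). The 11 tested genes of this list went both ways, with 6 below 0, 5 above and a median log2(V/D) of -0.09. Of these 11, 3 had an unadjusted p under 0.05 (limma). Libraries did not overlap for 1 in the D>V direction and 1 in the V>D direction (6.17% and 4.95% of all genes tested).

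Genes of cholesterol transport and turnover showed 0 calls by limma among 16 tested of 18, with 4 at an unadjusted p under 0.05 and a median log2(V/D) of 0.00. Apoe, the main lipoprotein component of the brain and made mostly by astrocytes, had FPKM of 81.2, 90.5, 91.0 and 78.6 dorsally and 112.5, 88.3, 98.5 and 102.0 ventrally, with overlapping regions (log2(V/D) 0.23, adjusted p 0.207 in limma). Npc1, which moves cholesterol out of lysosomes, had a log2(V/D) of -0.29 and was called in 1 of 8 fits with a library removed, that without D4 (adjusted p 0.022). Abcg1 (log2(V/D) -0.21), an exporter, and Vldlr (0.18), a lipoprotein receptor, were not called, though the libraries of each did not overlap between regions. They were the 1 D>V and the 1 V>D gene of the 16 without overlap, beside 6.17% and 4.95% of all genes tested. Cyp46a1, the neuronal hydroxylase that clears cholesterol from the brain, had a log2(V/D) of 0.07.

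Of the 10 genes of the other branches of the mevalonate pathway, 0 were called by limma and 1 had an unadjusted p under 0.05. Those with the largest ratios were subunits of the prenyl transferases, which attach the isoprenoids to proteins, namely Fntb (log2(V/D) 0.32), Rabggta (-0.18), Pggt1b (-0.10) and Fnta (0.09). Among 12 tested of 13 fatty acid synthesis genes 1 was called, Scd1, a desaturase that makes monounsaturated fatty acids. It had FPKM of 40.8, 43.8, 43.6 and 42.5 dorsally and 33.8, 33.0, 36.0 and 34.6 ventrally (log2(V/D) -0.31, adjusted p 0.0154 in limma). The regions were well apart, but the call was lost without V1, without D2 or without D3 (adjusted p 0.0526 to 0.0622) and with each library rescaled to one total (adjusted p 0.0689). It was also lost with the regions as headed (log2 fold change -0.0049, adjusted p 0.999 in limma), where 1 of 13674 genes was called. With the 4 libraries whose headers name the region used, the log2 fold change of Scd1 was -0.31 (adjusted p 0.416 in limma). In that fit 0 of 13661 genes were called, so the lack of a call there is not particular to Scd1. Scd2, the main desaturase of brain, had a log2(V/D) of -0.18 and an adjusted p of 0.165 (limma).

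Markers of other cell types were mostly not called. None of 10 astrocyte, 8 microglial and 6 endothelial markers was called by limma (4, 2 and 2 at an unadjusted p under 0.05), and their median log2(V/D) was 0.02, 0.12 and -0.31. The astrocyte markers went both ways, with 5 below 0 and 5 above. Libraries did not overlap for 2 of the 10 in the D>V direction and for 3 in the V>D direction (6.17% and 4.95% of all genes tested). Among the microglial markers 1 did not overlap, V>D, and among the endothelial ones 0. Of 6 oligodendrocyte precursor markers 1 was called, Olig1 (D>V, log2(V/D) -0.46), and of 10 neuronal markers 1, Slc17a6 (D>V). The precursor markers went both ways, with 3 below 0 and 3 above. Pdgfra (0.26) and Cspg4 (0.37) were not called, but their libraries did not overlap in the V>D direction (4.95% of all genes tested). Of the 10 neuronal markers 5 had an unadjusted p under 0.05 and 8 were below 0, with a median log2(V/D) of -0.15, and 4 did not overlap between regions in the D>V direction (6.17% of all genes tested). The summed FPKM of the oligodendrocyte list was 1129 to 1452 in dorsal and 637.2 to 808.6 in ventral libraries, that of the astrocyte list 1064 to 1146 and 1020 to 1106, and that of the neuronal list 4312 to 5536 and 3771 to 4749. No defining marker of these lists was at 0 in any library. The part of these markers in the levels of the cholesterol enzymes was not tested.

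The tested genes outside the lists whose profile over the 8 libraries was nearest to the mean profile of the 8 enzymes were Pgam1-ps2, Casp9, Trib1, Foxn2 and Zfp688. Their root mean square distance in standard deviations was 0.214 to 0.344, against a median of 1.32 over the genes compared. Among the members themselves, Hmgcs1 was nearest to that profile at 0.463 and Idi1 farthest at 1.14. None of the 5 genes was called, and their log2(V/D) ran from -0.43 to -0.09.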

How the data were processed

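Per the labels, cDNA was amplified with the Ovation RNA-Seq System V2 from 120 ng of RNA with integrity numbers of 7.1 to 8.5. The authors sequenced paired ends on 2 lanes, processed them with CASAVA 1.8, aligned them with TopHat2 2.0.8 and obtained the deposited FPKM from Cuffdiff 2 with Ensembl release 73 (GRCm38). Cuffdiff 2 also scaled the libraries to each other. The deposited comparison table also holds the authors' ratios, p-values and q-values, of which none was used. Another table, whose rows match no sample's labels, left 4 columns of per-sample values unused, fragment counts among them.

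Genes with enough alignments by the authors' mark (14989) and a mean FPKM of at least 1 were tested with limma 3.58.1 (R 4.3.3, mean-variance trend) on log2(FPKM + 1), unpaired, 4 dorsal against 4 ventral libraries. This scale understates the change of low genes such as Fdps. Intervals are 95%. Depth is unknown from FPKM, and no counting interval is given. Each library is a pool of mice, so p-values measure the spread between pools. The fit was tested on simulated data. Copies were found with blastn 2.17.0, and promoters were read from RefSeq. Tables and plots were made with pandas 2.3.3, NumPy 2.4.6, SciPy 1.17.1 and matplotlib 3.10.9 under Python 3.11.15.

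The members and gene lists were chosen with earlier results of these data known. By the naming rule, the text gives all 8 enzymes, Srebf2, Insig1, Apoe, Cyp46a1, Mbp and Scd2, in each other list of the pathway and of myelin the genes called (or, where none or more than 4 were, up to 4 with the largest ratio), and the 5 nearest profiles. Some genes that the rule takes are not reported here. Alternatives changed the added constant, filters, scaling, variance trend, ratio threshold, assignment of libraries and each library in turn, and, added after seeing the data, the pseudogene copies.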

Additional observations from a re-analysis of the deposited data

Results flagged for a closer look

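Of 60 groups of 4 libraries checked among the named genes, 3 had 1 library farther from the others than the 95% limit of Dixon's test. Chance gives such a gap in about 1 in 20 groups, and none of the 3 belonged to the 8 cholesterol synthesis enzymes. Lbr, a sterol reductase of the same pathway, was at 2.32 FPKM in the ventral library headed D3, while the other ventral libraries lay between 1.58 and 1.66. Ermn, a myelin gene, was at 8.79 in the same library, against 13.4 to 13.6 in the others. Aspa, another oligodendrocyte gene, was at 26.3 in the dorsal library headed V2, against 18.9 to 19.7.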

How the results depend on the processing

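None of the 8 enzymes was called under any alternative, and 137 of their 150 alternative values kept their direction. The exceptions are those of Sqle, Idi1, Fdps, Fdft1 and Dhcr7 given here. Without each library in turn, the limma log2 fold change ranged from -0.14 to 0.019 for Sqle, from -0.016 to 0.11 for Fdps and from -0.096 to 0.051 for Fdft1, and that of Cyp46a1 from -0.022 to 0.098. Fdft1 was at 0.029 with one total FPKM, 0.0069 with quantile normalization and 0.0056 with the copies added. With the regions as headed, values changed sign for Idi1 (0.15), Fdps (-0.14), Dhcr7 (-0.036), Stard4 (0.00090), Apoe (-0.087), Abcg1 (0.030), Vldlr (-0.061), Cyp46a1 (-0.16), Fntb (-0.0018), Pggt1b (0.11), Mbp (0.10), Mobp (0.25), Ermn (0.25) and Aspa (0.075). With the 4 libraries whose headers name the region used, they did for Fdps (-0.10), Cyp46a1 (-0.10) and Pggt1b (0.024). The cause was not tested.

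Over all genes, D>V calls were 195 with one total FPKM, 1 with the regions as headed and 0 with the 4 libraries, V>D calls were 0 in both of the latter, and calls on the oligodendrocyte list were 0 in both. Leaving out a library gave 157 to 341 D>V and 91 to 191 V>D calls (157 without V1, 163 without D3 and 189 without V2, and 91 without V1 or D3, 121 without D4 and 123 without D2), and 15 to 16 oligodendrocyte calls. Other counts stayed within 1.5 times.

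No paired analysis was possible because the labels do not say which group of mice a library came from. Fragment counts were deposited in rows that match no sample's labels and were not used. No counting error is therefore given, which limits what can be said of Fdps, near 1 FPKM.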
